A study of Rattus norvegicus with 18 samples.

Results

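DDMB and CDEB, code names of 2 of the p-dialkoxy chlorobenzenes that the study compares, were set directly against each other across genes in 6 samples of the 18 in the series, namely those labelled DDMB replicates 1 to 3 and CDEB replicates 1 to 3. Every sample was a culture of primary hepatocytes, the cells that do most of the liver's metabolism, from cryopreserved stocks of male Sprague Dawley (SD) rats. The cultures were kept for 24 h, then exposed for 24 h to the compound, at 300 µM for both DDMB and CDEB. Cultures with DMSO (VC_1) and with another of the compounds, CDMB, at 300 µM were used beside them, with 3 samples each. The design text speaks of 3 independent experiments per condition, but no label ties them to separate animals, and the p-values cover the spread from culture to culture only. Each RNA was hybridised alone to an Agilent one-colour array. A level is the log2 of the processed intensity minus the 75th percentile of its array, so 0 is that percentile and a step of 1 is 2-fold, and levels are not compared between genes. A difference is the mean level with DDMB minus the mean level with CDEB, ± the standard error (SE) of the limma fit, with n = 3 per group.

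The DDMB arrays lay on slide 1 with the DMSO arrays, and the CDEB arrays lay on slide 2 with the CDMB arrays, scanned on another day. Compound and slide therefore cannot be told apart in the direct difference. The ratio of a dim to a bright spike-in control, which holds no hepatocyte RNA, was 1.78% to 2.02% on the DDMB arrays and 1.21% to 1.28% on the CDEB arrays. It was 1.98% to 2.04% with DMSO on slide 1 and 1.23% to 1.32% with CDMB on slide 2. Same-slide values, DDMB minus DMSO and CDEB minus CDMB, are therefore given beside the direct difference of the leading genes. The first of these minus the second is called the within-slide difference, in which an additive slide effect cancels, though CDMB, itself a compound, stands in for a control on slide 2. On the 6 arrays, 61.4% to 63.3% of spots lay well above background and no probe spot was saturated. The median SD of a gene was 0.136 among the DDMB arrays and 0.0739 among the CDEB arrays. Replicate 1 was the DDMB array farthest from the median of its group for 48.9% of genes.

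All 20 hepatocyte markers on the list, including Alb, Ttr and Hnf4a, were well above background on all 6 arrays. Of markers of other liver cells, 8 of 14 Kupffer cell and macrophage genes, among them Cd163, Vsig4, Csf1r and C1qa, and 7 of 12 endothelial genes, among them Pecam1, Stab2 and Lyve1, were above background on none of the 6 arrays. Among lymphocyte markers this held for 10 of 14, including Cd3e and Cd8a, and among stellate cell and fibroblast markers for 4 of 16, including Lrat and Lum. Other markers of the same lists were well above background on all 6 arrays. These were 4 macrophage (Cd68, C1qb, Lyz2 and Cd14), 4 endothelial (Cdh5, Fcgr2b, Vwf and Eng) and 4 lymphocyte genes (Cd3d, Cd4, Nkg7 and Il2rb). So were 9 stellate cell and fibroblast genes, among them Acta2, Pdgfrb and Col1a2, and 5 cholangiocyte genes. The summed signal of the hepatocyte markers, in multiples of the array's 75th percentile, ranged from 2765 to 3611 with DDMB and from 3445 to 3793 with CDEB. For the stellate cell and fibroblast markers it ranged from 6.00 to 8.83 with DDMB and from 10.5 to 11.1 with CDEB, and for the endothelial markers from 8.53 to 9.75 and from 10.7 to 11.8, so these groups did not overlap. Cholangiocyte markers, of which 3 of 11 were above background on none of the arrays, summed to 9.09 to 10.1 with DDMB and 8.34 to 8.93 with CDEB. These did not overlap either, and were higher with DDMB. Macrophage markers summed to 16.5 to 19.4 and 16.8 to 17.4, and lymphocyte markers to 8.24 to 8.77 and 6.80 to 9.91, with overlap. Over these 6 marker lists 4 genes were called, and the number tested is given below for each list. Of all genes tested, 3.27% were called. Ass1, Tat and Cyp2c11, described later, were among 20 hepatocyte markers tested. Of 6 macrophage markers tested, Lyz2, the macrophage lysozyme, was called (0.49 ± 0.09, limma adjusted p = 0.0117). Its call was lost without DDMB replicate 2 or 3 or CDEB replicate 2 or 3 (adjusted p up to 0.0578). None was called of 5 endothelial, 9 stellate cell and fibroblast, 7 cholangiocyte and 4 lymphocyte markers tested. In bulk RNA, fewer cells of a type and less RNA per cell cannot be told apart. The part of these cells in the results was not tested.

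Hepatocytes handle foreign chemicals through nuclear receptors. CAR and PXR switch on cytochromes P450 of the Cyp2b and Cyp3a families, AhR switches on the Cyp1a family, and PPARalpha switches on fatty acid oxidation in peroxisomes and mitochondria. The oxidised products are conjugated and then pumped into bile or blood. The same cells make glucose, urea, lipids and most plasma proteins, and in male rats growth hormone sets a sex-biased pattern that includes Cyp2c11.

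Of 21574 genes tested, 706 (3.27%) were called at a Benjamini-Hochberg adjusted p below 0.05 in limma. Of these, 340 (1.58%) were higher and 366 (1.7%) lower with DDMB than with CDEB. The difference reached 2-fold for 46 of them, 6 higher and 40 lower, and its median size was 0.43. The count changed with the arrays fitted. A fit of the 6 arrays alone called 15 genes, among them Sat2, Sstr3, Cxcl12 and Slc7a5, and a fit of the 12 arrays of the 4 groups called 1213. At an unadjusted p below 0.05 stood 5498 and 5454 genes in these fits and 4360 in the fit of all 18 arrays. With slide as a random block, whose correlation was estimable through 1 group only (DDEB, which spans slides), 0 genes were called, and 805 had an unadjusted p below 0.05. Leaving out DDMB replicate 2 or 3 gave 187 and 147 calls, leaving out CDEB replicate 1, 2 or 3 gave 179, 108 and 109, and leaving out DDMB replicate 1 gave 932. In all, 84 calls were kept with each of the 6 arrays left out in turn, 31 higher and 53 lower, and 44 of these have a plain gene symbol. On single slides, DDMB minus DMSO called 120 genes (0.556%). CDEB minus CDMB called 0, with 1016 (4.71%) at an unadjusted p below 0.05, and the within-slide difference called 71 (0.329%), 24 higher (0.111%) and 47 lower (0.218%).

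**Figure D1:**
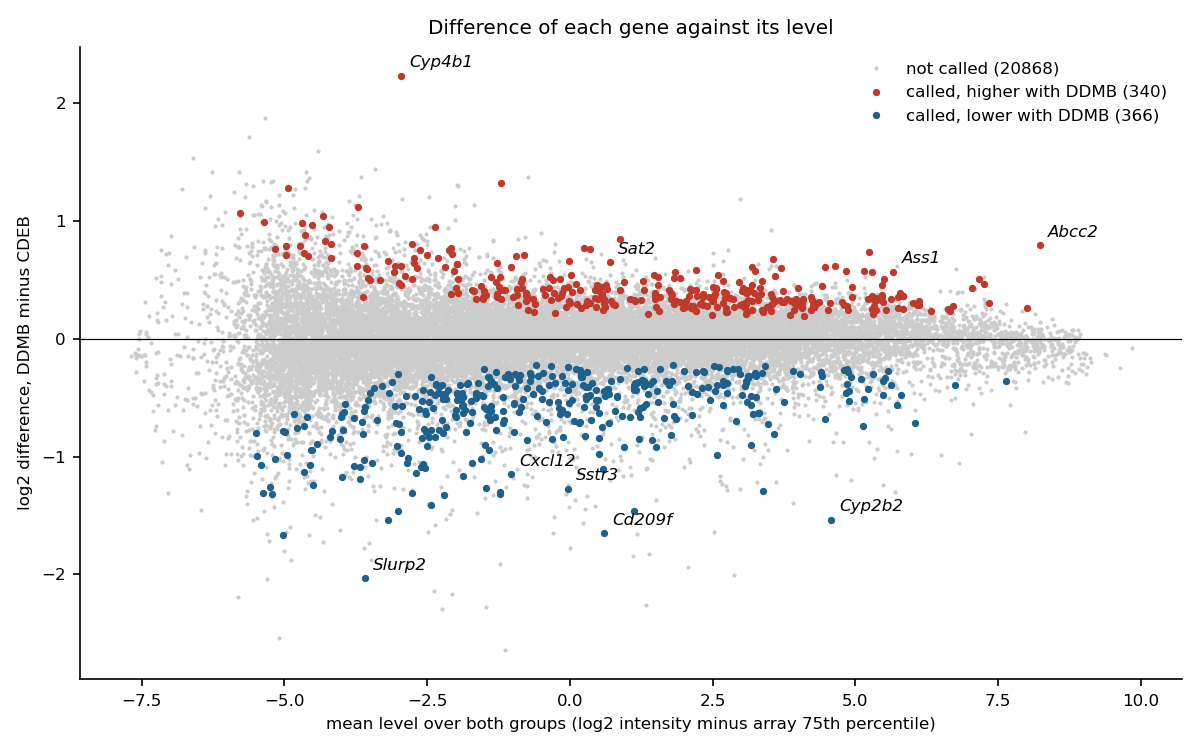
Log2 difference of each of 21574 genes, DDMB minus CDEB, against its mean level over both groups, with called genes in red (340 higher) and blue (366 lower) and the others in grey. Called genes lay on both sides of 0, and most of those past 2-fold were lower with DDMB.

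Of the 706 called genes, 302 have no plain symbol and are not named here. Cyp4b1, a cytochrome P450 of the fatty acid hydroxylase family that also oxidises foreign chemicals, had the largest called rise among those with one. Its levels were -2.79, -1.43 and -1.31 with DDMB and -4.03, -4.13 and -4.08 with CDEB, so all DDMB arrays lay above all CDEB arrays and replicate 1 was the lowest of the 3. The difference was 2.24 ± 0.35 (4.71-fold, adjusted p = 0.00697 in limma). Against DMSO on its own slide, DDMB stood higher by 2.28 ± 0.35 (adjusted p = 0.00802), whereas CDEB differed from CDMB by -0.01 ± 0.35, and the within-slide difference was 2.29 ± 0.50 with an adjusted p of 0.0758.

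Abcc2, the pump that exports conjugates across the canalicular membrane into bile, was also higher, at 8.36, 8.77 and 8.75 with DDMB and 7.82, 7.82 and 7.86 with CDEB, with no overlap. The difference was 0.79 ± 0.10 (limma adjusted p = 0.00222). Neither DDMB minus DMSO (0.47 ± 0.10, adjusted p = 0.0509) nor the within-slide difference (0.61 ± 0.14, adjusted p = 0.1) was called. Sat2, an acetyltransferase related to the enzyme that acetylates spermidine and spermine, had the smallest adjusted p of the named rises. Its levels were 1.01, 1.09 and 1.00 with DDMB and 0.41, 0.37 and 0.34 with CDEB, a difference of 0.65 ± 0.05 (limma adjusted p = 8.53e-05). Both groups were tight. DDMB minus DMSO was 0.20 ± 0.05 (adjusted p = 0.11) and CDEB minus CDMB -0.30 ± 0.05. The within-slide difference was 0.50 ± 0.07 (adjusted p = 0.0108). The calls of Cyp4b1, Abcc2 and Sat2 were kept with each of the 6 arrays left out, at adjusted p up to 0.0392, 0.0193 and 0.0017.

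The other 12 named rises ranged from 0.65 for Akr1c15 to 0.99 for Ugt2b7. Pck1, the first committed enzyme of gluconeogenesis, differed by 0.81 ± 0.20 (levels -2.65, -2.13 and -2.30 with DDMB and -3.24, -3.17 and -3.08 with CDEB). Pdk4, the kinase that shuts off pyruvate dehydrogenase, differed by 0.66 ± 0.13, Abcg5, a subunit of the sterol export pump of the canalicular membrane, by 0.69 ± 0.16, Procr, the protein C receptor, by 0.72 ± 0.12, and the aldo-keto reductase Akr1c15 by 0.65 ± 0.16. On slide 1, DDMB minus DMSO was 1.16 ± 0.20 for Pck1, 1.02 ± 0.16 for Abcg5 and 0.76 ± 0.12 for Procr, with adjusted p of 0.0175, 0.00909 and 0.0109. Of the 12 genes, Abcg5, Procr and Kcnk12 passed the test of the within-slide difference (adjusted p = 0.0176, 0.0193 and 0.0133), and the others, Pck1 among them (0.365), did not. The transcription factor Elk1 (0.75 ± 0.17) and the open reading frame C1h11orf86 (0.78 ± 0.19) complete the genes above the dimmest range. The remaining 5, Ugt2b7, Dpm1, Gas2l3, Kcnk12 and Zfp329, had mean CDEB levels between -5.86 and -4.60, and all 5 turned direction with normexp background correction. Kcnk12, a potassium channel, and Ugt2b7, a glucuronosyltransferase, were well above background on no CDEB array. On the processed intensity their "at least" folds with DDMB were 1.73 and 1.86. For Kcnk12 this equals the plain fold, and neither fold holds with normexp, where both differences were negative. Of these 12 genes, Procr lost its call without CDEB replicate 3 alone. The others lost theirs with 4 to 6 of the 6 arrays left out one at a time, always including DDMB replicates 2 and 3 and CDEB replicate 2 (adjusted p up to 0.173).

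The promoters of 6 called genes, Cyp4b1, Abcc2, Hspb1, Sstr3, Cxcl12 and Slc7a5, were searched for 3 motifs. Those of Abcc2 and Sstr3 held no match, and the 4 shown are those that held one. Each is the 250 bases before the transcript start on the gene's strand, from RefSeq (GRCr8), with motif matches in capitals. Cyp4b1 lies at chr5:134393117-134393366 (minus strand), Hspb1 at chr12:26432302-26432551 (minus), Cxcl12 at chr4:152060531-152060780 (plus) and Slc7a5 at chr19:66872413-66872662 (minus).
Cyp4b1: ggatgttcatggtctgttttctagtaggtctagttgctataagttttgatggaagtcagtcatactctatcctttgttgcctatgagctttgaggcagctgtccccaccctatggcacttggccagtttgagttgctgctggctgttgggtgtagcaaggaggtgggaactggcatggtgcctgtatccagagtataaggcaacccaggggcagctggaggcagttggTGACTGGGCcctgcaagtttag
Hspb1: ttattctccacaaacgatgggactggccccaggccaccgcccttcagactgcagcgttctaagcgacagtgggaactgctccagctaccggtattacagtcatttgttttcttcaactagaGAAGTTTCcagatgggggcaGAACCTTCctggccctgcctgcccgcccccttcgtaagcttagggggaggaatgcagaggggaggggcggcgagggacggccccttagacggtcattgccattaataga
Cxcl12: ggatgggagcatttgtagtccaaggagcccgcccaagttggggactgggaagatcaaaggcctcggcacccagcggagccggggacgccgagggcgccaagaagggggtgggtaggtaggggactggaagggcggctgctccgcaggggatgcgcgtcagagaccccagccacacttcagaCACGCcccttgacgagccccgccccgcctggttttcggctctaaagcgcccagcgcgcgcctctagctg
Slc7a5: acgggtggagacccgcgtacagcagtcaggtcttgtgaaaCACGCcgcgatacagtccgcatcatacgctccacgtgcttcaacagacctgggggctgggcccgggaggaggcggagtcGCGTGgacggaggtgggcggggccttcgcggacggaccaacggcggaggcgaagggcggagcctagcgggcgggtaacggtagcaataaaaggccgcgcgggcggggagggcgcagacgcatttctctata
The 3 motifs searched on both strands, which do not share letters in these windows, were GAANNTTC, the inverted pair of heat shock element units, TGACNNNGC, the core of the antioxidant response element, and GCGTG, the core of the AhR site. Of 33469 promoter windows of this length in the table, 7.23%, 10.1% and 25.9% hold them. The window of Hspb1 holds the heat shock pair at 129 and 109 bases before the start, that of Cyp4b1 the antioxidant core at 22 bases, that of Cxcl12 the AhR core at 69 bases, and that of Slc7a5 the AhR core at 210 and 131 bases. A match describes letters and is no evidence of binding.

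**Figure D2:**
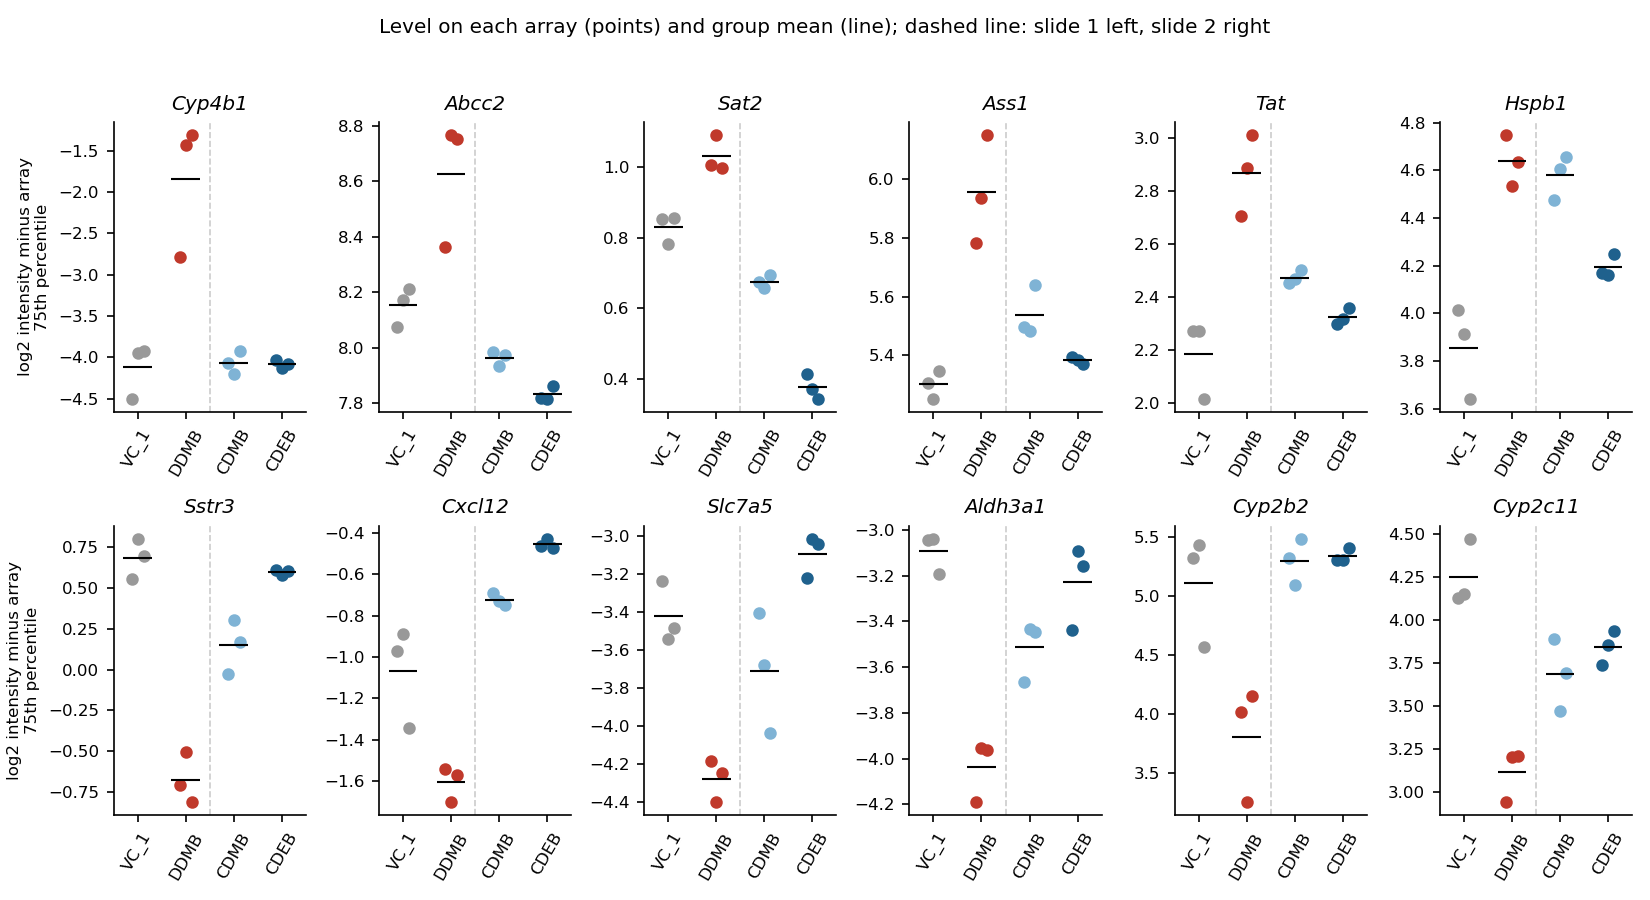
Level of 12 genes on each array (points) with group means (lines), DMSO (VC_1) and DDMB on slide 1 to the left of the dashed line, CDMB and CDEB on slide 2 to the right. In each panel the 3 DDMB points and the 3 CDEB points do not overlap, and the DMSO and CDMB points show the level of the comparison culture on each slide.

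Sstr3, a somatostatin receptor, was among the named falls. Its levels were -0.70, -0.51 and -0.81 with DDMB and 0.61, 0.58 and 0.60 with CDEB, with a wide gap between the groups. The difference was -1.27 ± 0.12 (limma adjusted p = 0.000383). On slide 1 Sstr3 was lower than with DMSO by a change of -1.36 ± 0.12 (adjusted p = 0.000224), CDEB minus CDMB was 0.45 ± 0.12, and the within-slide difference was -1.81 ± 0.18 (adjusted p = 0.000591).

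Cxcl12, the chemokine that draws CXCR4-bearing leukocytes, stood at -1.54, -1.70 and -1.57 with DDMB and -0.47, -0.43 and -0.47 with CDEB. The difference of -1.15 ± 0.10 (limma adjusted p = 0.000173) stood beside a DDMB minus DMSO value of -0.53 ± 0.10, and the DMSO and CDMB means were -1.07 and -0.72. The within-slide difference was -0.80 ± 0.15 (adjusted p = 0.0291). Slc7a5, the large neutral amino acid transporter LAT1, was at -4.18, -4.40 and -4.25 with DDMB and -3.22, -3.01 and -3.04 with CDEB, a difference of -1.19 ± 0.19, with a within-slide difference of -1.47 ± 0.27 (adjusted p = 0.0295). Cd209f, a C-type lectin, was at 0.18, -0.65 and -0.19 and 1.48, 1.39 and 1.42, a difference of -1.65 ± 0.23. Its DDMB minus DMSO value of -0.90 ± 0.23 and its within-slide difference of -1.54 ± 0.33 were not called (adjusted p = 0.115 and 0.07). The calls of Sstr3, Cxcl12, Slc7a5 and Cd209f were kept with each of the 6 arrays left out, at adjusted p up to 0.00435, 0.00244, 0.0424 and 0.0272.

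Cyp2b2, a cytochrome P450 that CAR activators raise in rat liver, was lower with DDMB, at 4.02, 3.25 and 4.15 against 5.31, 5.31 and 5.41 with CDEB. The difference was -1.54 ± 0.29 (limma adjusted p = 0.0151), and DDMB minus DMSO was -1.30 ± 0.29 (adjusted p = 0.0679). Its relative Cyp2b21 differed by -1.41 ± 0.36, and since family members are near copies, their probes may share RNA. Igfals, the liver-made subunit that holds circulating IGF, differed by -1.31 ± 0.26, Myl2, a myosin light chain, by -1.32 ± 0.24, and Dnase1l3, a secreted DNase, by -1.30 ± 0.30. Slurp2 had the largest called fall among genes with a plain symbol, -2.03 ± 0.51, with DDMB levels spread from -5.44 to -3.47. The named falls also held C7h12orf75 (-1.66 ± 0.36), Tmbim7 (-1.54 ± 0.33), Tmem79 (-1.33 ± 0.29), Reg4 (-1.27 ± 0.27) and Dhrs7l1, which was above background on no DDMB array and at least 2.41-fold higher with CDEB. Slurp2 was well above background on 2 of the 3 DDMB arrays and C7h12orf75 on 1, so the sizes of their falls rest partly on signal near background. Of these 11 falls no call held with every array left out. Each was lost with 4 to 6 of the 6 arrays, all 3 CDEB arrays included, at adjusted p up to 0.19, and all but Cyp2b21 were kept without DDMB replicate 1. Of the 11, Myl2 alone passed the test of the within-slide difference (adjusted p = 0.0415).

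**Figure D3:**
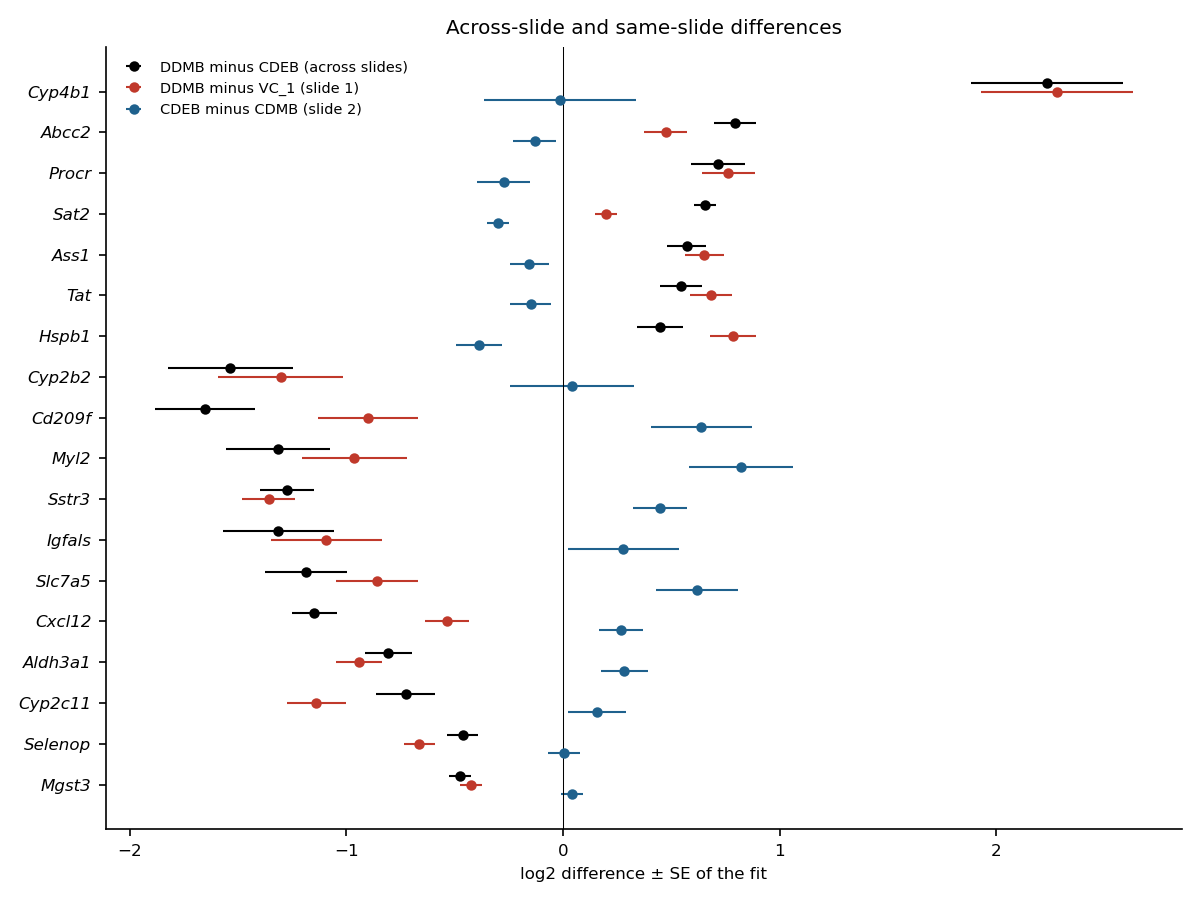
Log2 difference ± SE of 18 genes between DDMB and CDEB across slides (black), DDMB and DMSO on slide 1 (red), and CDEB and CDMB on slide 2 (blue). For Cyp4b1 the red value (2.28) is about as far from 0 as the black one (2.24), and for Sat2 it is smaller (0.20 against 0.65).

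The 28 functional lists hold 715 measured genes, of which 54 (7.55%) were called, 20 higher and 34 lower, beside the 3.27% of all genes. Of the 10794 genes tested that have a plain symbol, 404 were called. The lists were chosen with earlier results of these data known, so the higher share in them is no independent result. The median difference over the 715 list genes was -0.07, against 0.0071 over all genes tested. In 11 lists called members lay in both directions. The list medians given below are of the direct difference, across slides, unless the within-slide difference is named. Over the 28 lists the within-slide medians ran from -0.29 (chemokines, cytokines and NF-kB targets) to 0.21 (cholesterol synthesis).

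In the PPARalpha lists the directions split within each group. Among the 9 omega-hydroxylation genes, Cyp4b1 rose, Cyp4a1 fell by 0.63, and 7 were not called. Cyp4a1, the textbook PPARalpha target that hydroxylates fatty acids, was at 2.53, 3.15 and 3.32 with DDMB and 3.61, 3.62 and 3.65 with CDEB. The same-slide values were 0.16 ± 0.14 for DDMB minus DMSO and 0.64 ± 0.14 for CDEB minus CDMB, neither called. Of 20 peroxisomal genes, 2 were higher, 3 lower and 15 not called. Crat, which moves acyl groups onto carnitine, was among the higher ones (0.28 ± 0.07), and on slide 1 it was also above DMSO, by 0.57 ± 0.07 (adjusted p = 0.0023), while its within-slide difference was not called (adjusted p = 0.0566). Ehhadh, the bifunctional enzyme of peroxisomal beta-oxidation (-0.43 ± 0.10), and catalase (Cat, -0.47 ± 0.10) were among the lower ones. Of 24 genes of mitochondrial oxidation and ketone bodies, 1 was higher (Pdk4) and 3 lower, among them Acat1 (-0.30 ± 0.06) and the uncoupling protein Ucp2 (-0.83 ± 0.16). Of 29 lipid binding and signalling genes, the triglyceride lipase Pnpla2 was higher (0.49 ± 0.12) and the glycerol channel Aqp7 lower (-0.47 ± 0.10), and Fgf21 gave -0.82 ± 0.45 with an adjusted p of 0.331. Apart from Cyp4b1, each of the calls named here was lost with 4 or 5 of the 6 arrays left out, always including all 3 CDEB arrays or, for Pdk4, CDEB replicates 1 and 2 (adjusted p up to 0.181).

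Among 36 CAR and PXR targets, Abcc2 and Ugt2b1 (0.43 ± 0.11) were higher, Cyp2b2 and Cyp2b21 lower and 32 not called. Cyp3a23-3a1, the PXR marker of rat liver, was at 7.64, 7.72 and 8.03 with DDMB and 7.54, 7.48 and 7.47 with CDEB, a difference of 0.30 ± 0.10 with an adjusted p of 0.123. Of 13 AhR targets, Slc7a5 and Aldh3a1 were lower, and 11 were not called. Aldh3a1, an aldehyde dehydrogenase, was at -4.19, -3.95 and -3.96 and -3.44, -3.09 and -3.16, a difference of -0.81 ± 0.11 (limma adjusted p = 0.00339) that was kept with each array left out, and the within-slide difference was -1.23 ± 0.15 (adjusted p = 0.00407). Cyp1a1, the defining AhR target, differed by -0.30 ± 0.64 with an interval of -1.67 to 1.08, and Cyp1a2 by -0.51 ± 0.23. The DDMB levels of Cyp1a1 were 3.97, 2.72 and 3.24, which straddle its CDEB levels of 3.73, 3.59 and 3.50. Those of Cyp1a2 were 5.65, 4.89 and 5.46, below its CDEB levels of 5.87, 5.87 and 5.78, and it was not called (limma adjusted p = 0.238). With DMSO Cyp1a2 was at 5.90, 5.81 and 5.18. Among 42 NRF2 targets, Abcc2 alone was called. Hmox1, the heme oxygenase, gave -0.88 ± 0.60 (interval -2.16 to 0.41), with DDMB levels of 5.69, 3.94 and 4.80. Its DMSO levels also spread, at 5.70, 5.53 and 3.68. Of 38 conjugation enzymes, Ugt2b7 and Ugt2b1 were higher and Nnmt, Mgst3 and Gstt2 lower. Mgst3, a microsomal glutathione transferase, was at 5.61, 5.51 and 5.57 with DDMB and 6.05, 6.05 and 6.03 with CDEB, a difference of -0.48 ± 0.05 (limma adjusted p = 0.000488), kept with each array left out, and the within-slide difference was -0.47 ± 0.07 (adjusted p = 0.0121). Nnmt gave -0.49 ± 0.09 and Gstt2 -0.40 ± 0.08, both lost without any 1 CDEB array or DDMB replicate 2 (adjusted p up to 0.0905), and Ugt2b1 without any 1 array other than DDMB replicate 1 (up to 0.193). The within-slide differences of Nnmt, Ugt2b1 and Gstt2 were not called (limma adjusted p = 0.128, 0.468 and 0.958). For Gstt2 it was -0.065 ± 0.12, DDMB minus DMSO was 0.02 ± 0.08, and the DMSO and CDMB means were 2.85 and 3.18.

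Of 46 genes of the urea cycle and amino acid breakdown, 3 were higher, 2 lower and 41 not called. Ass1, argininosuccinate synthase, was at 5.78, 5.93 and 6.15 with DDMB and 5.40, 5.38 and 5.37 with CDEB, a difference of 0.57 ± 0.09 (limma adjusted p = 0.00697) that was kept with each array left out. On slide 1 it was higher than with DMSO by 0.65 ± 0.09 (adjusted p = 0.00473), and the within-slide difference was 0.81 ± 0.13 (adjusted p = 0.0144). Tat, tyrosine aminotransferase, was at 2.71, 2.89 and 3.01 and 2.30, 2.32 and 2.36, a difference of 0.55 ± 0.10 that lost its call without DDMB replicate 3 or CDEB replicate 2 (adjusted p up to 0.0556). The liver glutaminase Gls2 was higher by 0.31 ± 0.06, and Gnmt, which uses up S-adenosylmethionine (-0.81 ± 0.21), and Kynu, of tryptophan breakdown (-0.29 ± 0.07), were lower. Of 19 gluconeogenesis genes, Pck1 was higher and 2 were lower, among them pyruvate carboxylase (Pc, -0.90 ± 0.21), which was at 2.90, 2.52 and 2.75 with DDMB and 3.60, 3.64 and 3.62 with CDEB. With DMSO Pc was at 3.25, 3.24 and 2.50, and DDMB minus DMSO was -0.28 ± 0.21 (limma adjusted p = 0.762). The within-slide difference was called for Tat (adjusted p = 0.0161). It was not for Gls2, Kynu, Pc and Gnmt (0.0868, 0.155, 0.689 and 0.824). The calls of Gls2, Gnmt, Kynu and Pc were lost with 5 or 6 of the 6 arrays left out, the 3 CDEB arrays and DDMB replicates 2 and 3 in every case (adjusted p up to 0.191).

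Of 30 genes of fatty acid and triglyceride synthesis, Insig2, which holds the sterol sensor in the endoplasmic reticulum, was higher (0.61 ± 0.11). Srebf1, the transcription factor of lipid synthesis (-0.63 ± 0.15), Acss2 (-0.49 ± 0.12) and the desaturase Scd (-0.39 ± 0.07) were lower, and 26 were not called. Scd differed from DMSO on slide 1 by 0.17 ± 0.07 and CDEB from CDMB on slide 2 by 0.35 ± 0.07, and the within-slide difference was -0.18 ± 0.10. Pklr, which makes pyruvate, gave -1.85 ± 0.58 with an adjusted p of 0.0953, with DDMB levels of 1.30, -0.52 and -0.24. Its DMSO levels also spread, at 2.38, 1.90 and 0.43. Of 26 cholesterol synthesis genes none was called, and their median difference was 0.13, and 0.21 within slides. Of 23 genes of bile acid synthesis and transport, Abcc2 was the called one. Cyp7a1, the rate-limiting enzyme of bile acid synthesis, was at -1.73, -3.67 and -2.41 with DDMB and -0.31, -0.28 and -0.39 with CDEB, a difference of -2.27 ± 0.82 whose adjusted p was 0.143. The CDEB levels were tight and all above the DDMB levels, which were spread widely. The DMSO levels of Cyp7a1 were spread as well, at -1.09, -1.36 and -3.18. DDMB minus DMSO was -0.72 ± 0.82 (limma adjusted p = 0.884), and the within-slide difference was not called (adjusted p = 0.873). Of 13 sterol export and LXR targets, Abcg5 was higher and Srebf1 lower. In this paragraph Insig2 lost its call without CDEB replicate 2 or 3 (adjusted p up to 0.058), Scd without CDEB replicate 1 or 2 or DDMB replicate 2 (up to 0.056), and Srebf1, Acss2 and Abcg5 with 5 or 6 of the 6 arrays left out, all 3 CDEB arrays included (up to 0.182).

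The list of sex-biased and growth-hormone-regulated genes had the lowest median of the functional lists, -0.43 over 23 genes in the difference across slides. The list's median was -0.15 for DDMB minus DMSO and -0.046 for the within-slide difference. Stat5b, which carries the growth hormone signal, was higher (0.36 ± 0.08), while Igfals, Sstr3 and Cyp2c11 were lower and 19 not called. The members of the list, Sstr3 among them, were chosen with earlier results of these data known. Their calls are therefore no independent support for a pattern of the list. Cyp2c11, the male-specific testosterone hydroxylase, was at 2.94, 3.20 and 3.21 with DDMB and 3.74, 3.85 and 3.93 with CDEB, a difference of -0.73 ± 0.14 (limma adjusted p = 0.0151), lost without CDEB replicate 2 or 3 (up to 0.0737). On slide 1 Cyp2c11 was lower than with DMSO by a change of -1.14 ± 0.14 (adjusted p = 0.00158), and the within-slide difference was -1.30 ± 0.19 (adjusted p = 0.0111). Stat5b lost its call with each of the 6 arrays left out (adjusted p up to 0.114). Hsd17b2, a steroid dehydrogenase, was lower by a larger but uncalled -2.26 ± 0.97 (adjusted p = 0.212), with DDMB levels of 1.93, -1.29 and -0.05. Its DMSO levels also spread, at 2.20, 1.70 and -0.84. The median level of the list was 1.93, 1.23 and 1.45 on the DDMB arrays and 2.40, 2.45 and 2.30 on the CDEB arrays, with no overlap. On the DMSO arrays it was 2.20, 1.74 and 0.96, which overlaps the DDMB arrays.

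Of 48 plasma and acute phase proteins, Itih1 (-0.48 ± 0.09) and the selenium carrier Selenop were lower and 46 not called. Selenop was at 4.49, 4.77 and 4.55 and 5.11, 5.06 and 5.03, a difference of -0.46 ± 0.07 (limma adjusted p = 0.00661), kept with each array left out. On slide 1 it differed from DMSO by -0.66 ± 0.07, and the within-slide difference was -0.67 ± 0.10 (adjusted p = 0.0121). The groups did not overlap for 18 of the 48 in the lower direction and 2 in the higher, beside 15.4% and 18.5% of all genes. The list's median difference was -0.25, and -0.11 within slides. The list's median level on the DDMB arrays was 7.55, 6.73 and 6.85, so replicate 1 stood with the CDEB arrays (7.50, 7.49 and 7.36) and replicates 2 and 3 below them. The DMSO arrays also spread, at 7.48, 7.31 and 6.91. Alb itself differed by -0.25 ± 0.14. For cell cycle genes the order of the DDMB arrays was the opposite, with median levels of -2.14, -1.45 and -1.71 on the DDMB arrays and -2.05, -2.05 and -2.02 on the CDEB arrays. DMSO replicate 3 stood above them all, at -1.13, beside -1.69 and -1.74 on the other DMSO arrays. The median difference of the list was 0.25 across slides, 0.042 without DDMB replicate 2, -0.18 for DDMB minus DMSO and -0.16 within slides. Of the 37 cell cycle genes, Tk1 was lower (-0.39 ± 0.10) and 36 were not called. Rrm2, a subunit of ribonucleotide reductase, was at -2.31, 0.05 and -1.87 with DDMB and -2.13, -2.22 and -2.09 with CDEB, and Cdk1 at -2.25, -0.42 and -1.71 and -2.24, -2.23 and -2.02, so DDMB replicate 2 was far above the other 5 arrays. On the DMSO arrays Rrm2 was at -1.34, -0.71 and 0.87 and Cdk1 at -1.69, -1.40 and 0.35, with replicate 3 higher than any DDMB array. Itih1 and Tk1 lost their calls without any 1 CDEB array or DDMB replicate 2, and Tk1 also without DDMB replicate 3 (adjusted p up to 0.0723 and 0.169).

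**Figure D4:**
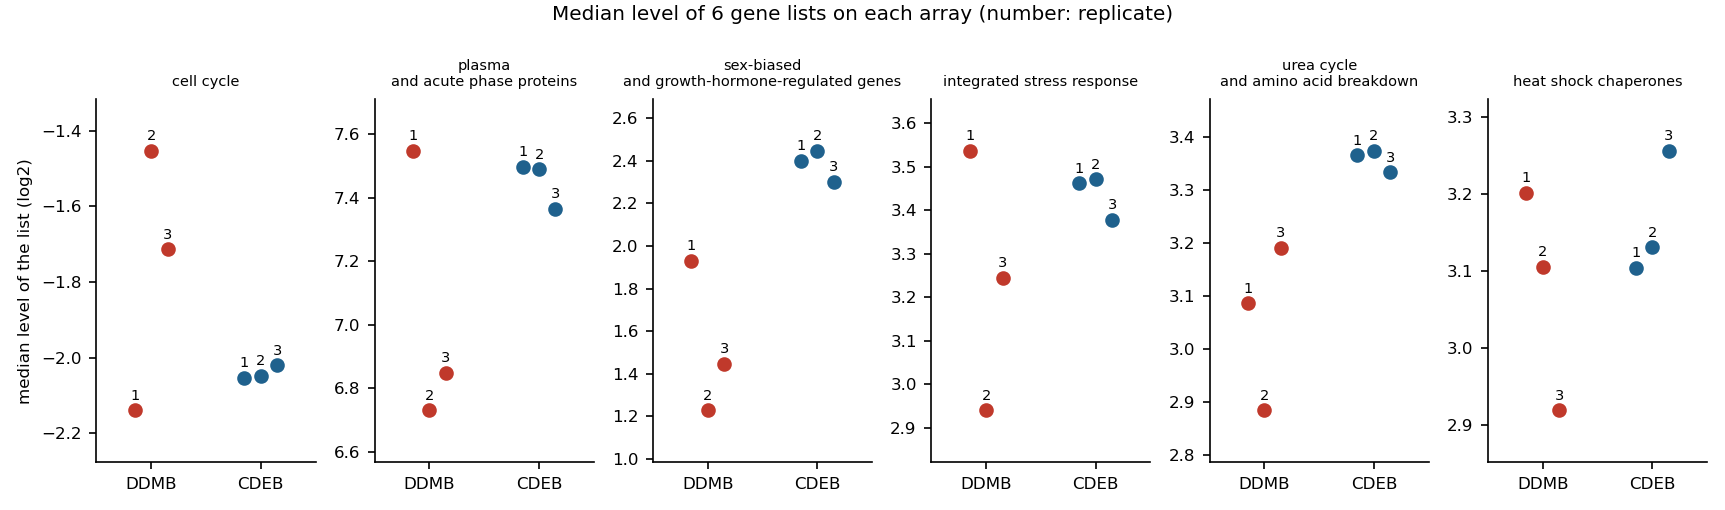
Median level of 6 gene lists on each DDMB and CDEB array, with the replicate number above each point. The CDEB arrays lay closer together than the DDMB arrays in every panel, and DDMB replicate 1 was the highest or lowest of its group in 5 of the 6.

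Of 26 heat shock chaperones, Hsp90aa1 and Hspb1 were higher and 24 not called. Hspb1, a small chaperone whose promoter is shown above, was at 4.75, 4.54 and 4.64 with DDMB and 4.17, 4.16 and 4.25 with CDEB, a difference of 0.45 ± 0.11 (limma adjusted p = 0.04). The means were 3.86 with DMSO and 4.58 with CDMB. DDMB minus DMSO was 0.78 ± 0.11 (adjusted p = 0.00473), CDEB minus CDMB was -0.39 ± 0.11, and the within-slide difference was 1.17 ± 0.15 (adjusted p = 0.00517). Hsp90aa1, the inducible cytosolic chaperone, differed by 0.51 ± 0.12, with a within-slide difference of 0.34 ± 0.17 (adjusted p = 0.602). Of 32 integrated stress response genes, Slc7a5 and Asns, asparagine synthetase (-0.32 ± 0.07), were lower. The groups did not overlap for 13 of the 32 in the lower direction and 3 in the higher, beside 15.4% and 18.5% of all genes. The median was -0.23, ranged from -0.34 to -0.10 with each of the 6 arrays left out in turn, and was -0.11 within slides. Ddit3, the CHOP transcription factor, gave 0.33 ± 0.20, and Atf3 -0.05 ± 0.08, neither called. Of 26 endoplasmic reticulum chaperones, Sdf2l1 was higher (0.33 ± 0.07), and of 25 p53 targets, the ribonucleotide reductase subunit Rrm2b (0.58 ± 0.11). Cdkn1a, the p53-induced cell cycle inhibitor, differed by -0.55 ± 0.25 (interval -1.09 to -0.01) and Mdm2 by 0.13 ± 0.07. The calls in this paragraph other than Slc7a5 were lost with 5 or 6 of the 6 arrays left out, CDEB arrays and DDMB replicates 2 and 3 in every case (adjusted p up to 0.147).

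Of 20 chemokine, cytokine and NF-kB genes, Cxcl12 was the called one. Ccl20 gave 1.44 ± 0.85, with DDMB levels of -3.31, -1.74 and -3.02 and CDEB levels of -4.05, -3.97 and -4.38, and an adjusted p of 0.363. Of 29 nuclear receptors, the thyroid hormone receptor Thra was lower (-0.42 ± 0.10). Of 37 matrix and adhesion genes, Ogn, osteoglycin (-1.05 ± 0.23), and Tgfbi (-0.27 ± 0.06) were lower. Of 13 keratin and neurofilament genes, Nefm was lower, at -4.91, -4.99 and -5.34 with DDMB and -4.18, -4.08 and -3.76 with CDEB. That difference was -1.07 ± 0.25, with a within-slide difference of -2.80 ± 0.35 (adjusted p = 0.00407). Nefm was well above background on 2 of the 3 DDMB arrays. The summed stellate cell and fibroblast markers given above were lower with DDMB in the same samples as Ogn and Tgfbi, and their part was not tested. Over the 9 such markers tested, the sums were 5.91 to 8.33 with DDMB and 10.4 to 11.1 with CDEB. They were 5.35 to 6.95 with CDMB and 8.25 to 12.8 with DMSO. The mean level with CDMB and with DMSO was -3.08 and -2.18 for Ogn, and 4.04 and 3.95 for Tgfbi. Of 51 respiratory chain genes 1 was called, Ndufa4 (0.24 ± 0.06). Of 14 circadian clock and 32 glycolysis and hypoxia genes none was called. Their medians were -0.22 and -0.24 across slides and 0.013 and 0.045 within slides. With each array left out in turn the former ranged from -0.32 to -0.17 and from -0.39 to -0.12. Thra, Ogn, Tgfbi, Nefm and Ndufa4 lost their calls with 4 to 6 of the 6 arrays left out, all 3 CDEB arrays included (adjusted p up to 0.18).

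**Figure D5:**
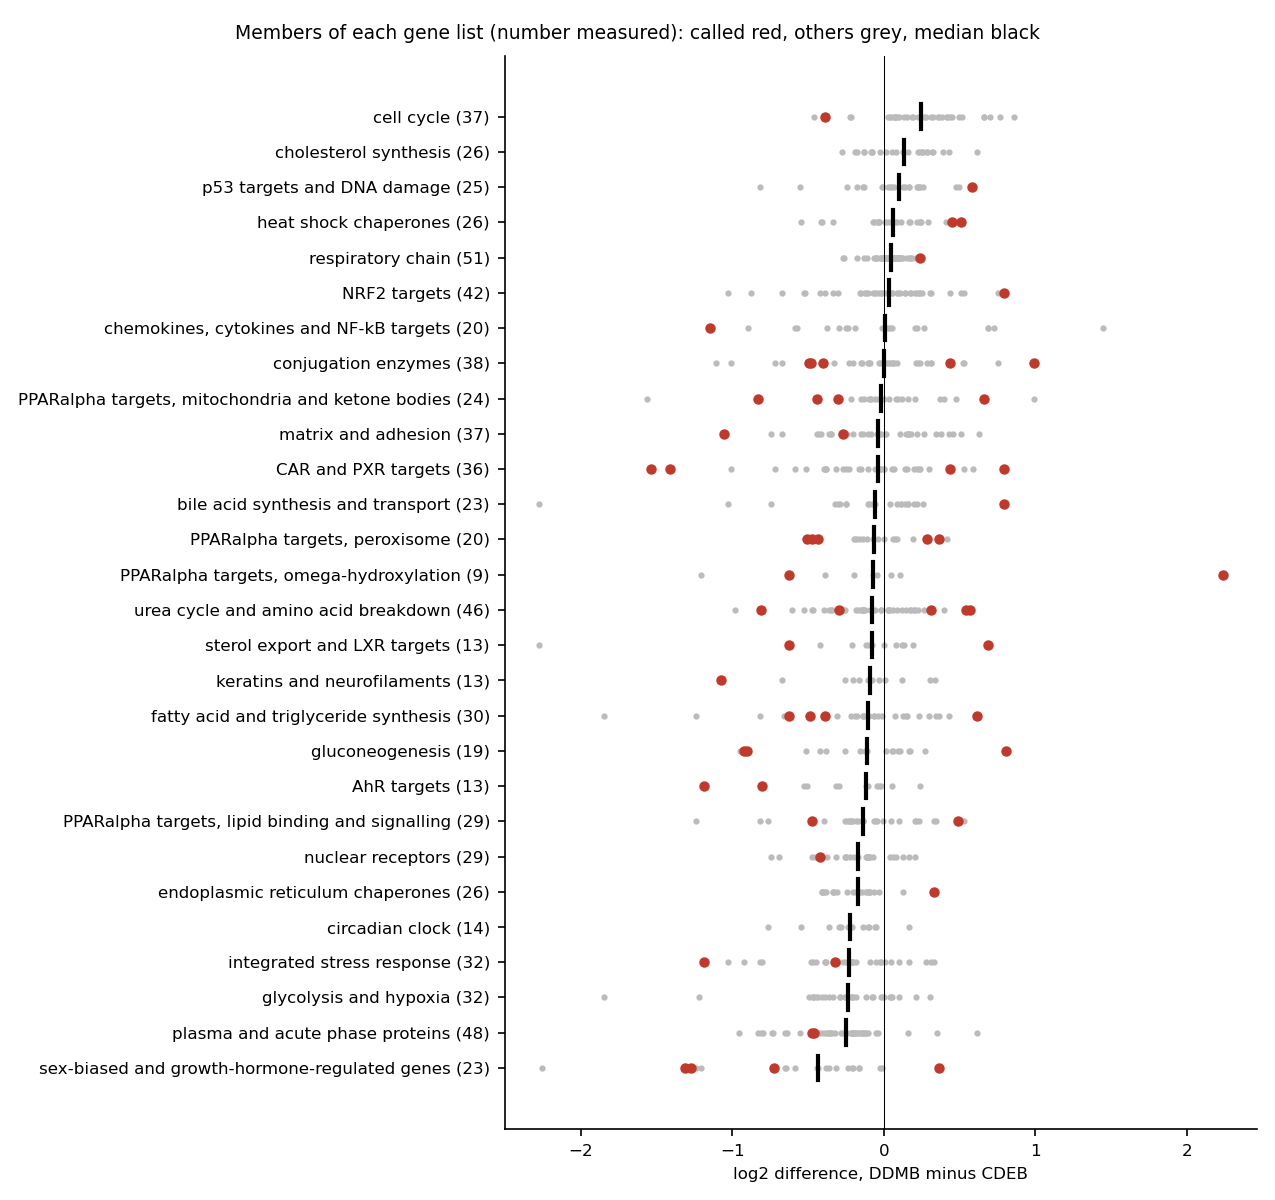
Log2 difference, DDMB minus CDEB, of each measured member of 28 gene lists (points), with called members in red and the list median as a black bar. Medians of this difference, across slides, ran from -0.43 for the sex-biased list to 0.25 for the cell cycle list (-0.046 and -0.16 within slides), and called members lay on both sides of 0 in 11 lists.

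Among the 44 plain-symbol genes that stayed called without any 1 of the 6 arrays, 14 were higher and 30 lower. The following were chosen from these after their values were seen. Gmfb, a regulator of actin branches, was higher by 0.60 ± 0.06 (limma adjusted p = 0.000488) and Uhmk1, a kinase, by 0.52 ± 0.08, with within-slide differences of 0.60 ± 0.09 and 0.64 ± 0.11. Slc9a9, an endosomal sodium-proton exchanger, was lower by a difference of -0.69 ± 0.07 (limma adjusted p = 0.000488), at -2.54, -2.70 and -2.50 with DDMB and -1.94, -1.87 and -1.86 with CDEB, and Mab21l4 by -1.17 ± 0.13. Masp1, a protease of the lectin complement pathway (-0.98 ± 0.16), Inhbc, an activin subunit made by liver (-0.90 ± 0.13), Gamt, which makes creatine (-0.68 ± 0.10), and Bco2, which cleaves carotenoids (-0.62 ± 0.08), were lower as well. The within-slide differences were -0.88 ± 0.10 for Slc9a9 (adjusted p = 0.00404), -1.25 ± 0.18 for Mab21l4 (0.0111) and -0.69 ± 0.11 for Bco2 (0.0181), while those of Masp1, Inhbc and Gamt missed the threshold at adjusted p of 0.147, 0.0804 and 0.241.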

How the data were processed

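Expression was measured in 18 one-colour arrays, 6 of which are compared here. Per the file headers, Agilent Feature Extraction 10.7.1.1 gave each spot's processed intensity, background-subtracted and detrended. The table of signal deposited by the authors was a constant multiple of the scaled intensity for probes over 1, checked array by array, and served as an alternative. How the authors scaled it is not stated in these sources. Log2 intensity was averaged over unflagged spots, and the array's 75th percentile over probes was subtracted (a log2 value computed here from the deposited intensity). Of 45598 probes, 21109 were named by accession through RefSeq (GRCr8), giving 16581 genes, and 24489 kept their accession. Probes flagged on any array (435) were left out. A probe was kept when it was well above background on all 3 arrays of a group, and the brightest kept probe stood for its gene (21574 genes, 10794 with a plain symbol). Where every probe of a gene stayed at background throughout a group, an "at least" fold is given, set against the higher of its own value and the lowest signal well above background. Such a fold does not allow for the spread between arrays or for another background correction.

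All 18 arrays entered 1 group-means model (limma 3.58.1 with eBayes under R 4.3.3, leaving 12 residual degrees of freedom), with Benjamini-Hochberg adjustment per comparison. The test was also run on simulated data with independent noise, the same spread in each group and no slide effect. That simulation does not cover the difference of slide or the unequal spread of the groups compared here. Intervals are at 95%. The number of arrays limits the precision. An exact permutation test of 3 against 3 cannot go below p = 0.1 (two-sided) and was not used. The named genes are the 15 largest called rises and falls with a plain symbol and no overlap, up to 4 members of each list by size, a fixed set, and called list members. A few genes that the rule names are not reported here. The members, lists and rule were chosen with earlier results of these data known. Alternatives covered scaling, background correction, the deposited table, the arrays fitted, the filter, the probe rule, slide and replicate blocks, and each array left out. The files lack a mean-signal column, so normexp (offset 50) used the median signal. Same-numbered DDMB and CDEB replicates did not deviate together (r = 0.10, 0.018 and 0.0068), so the numbers were not taken as pairs.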

Additional observations from a re-analysis of the deposited data

How the results depend on the processing

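Of the 706 calls between DDMB and CDEB, scaling by quantile normalization or cyclic loess (added after the data were seen) kept 563 and 650. The count moved to 1407 with normexp background correction (42.6% higher, against 48.2%, with the median of all genes shifted by -0.079). It was 1240 with the deposited table, which holds only the 12 arrays of the 4 groups, and 1213 with the scanner values of the same 12 arrays. The first of these is therefore also a change of the arrays fitted. The count was 147 with no filter on dim probes, 15 with the 6 arrays alone (13.3% higher) and 0 with slide as a random block. With the replicate number as a replicate block it was 1221, although the numbers do not pair the samples. It ranged from 108 to 932 with each array left out in turn. The within-slide count of 71 moved to 15 with no filter, 112 with the replicate block and 128 with slide as a random block (added), and ranged from 26 to 124 with each array left out. The causes were not tested. With normexp the difference turned to -0.098 for Dpm1, -0.14 for Gas2l3, -0.21 for Kcnk12, -0.21 for Ugt2b7 and -0.27 for Zfp329. It also moved list medians to 0.10 (respiratory chain), -0.13 (hepatocyte markers) and -0.36 (lymphocyte markers). Leaving out single arrays moved them within -0.22 to 0.020 for matrix and adhesion, -0.36 to -0.11 for hepatocyte markers and -0.20 to -0.0098 for lymphocyte markers, and up to 0.035 for stellate and 0.039 for cholangiocyte markers. The cell cycle median of 0.25 was 0.042 without DDMB replicate 2 and 0.013 with normexp. Array weights did not converge and are not given. Signal over background limits the dimmest genes.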
